A study of Mus musculus with 2 samples.

Results

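Gm28653 and Gm15640 are 2 long noncoding RNA genes (lncRNAs) whose counts lay mostly in muscle cells of the mouse embryo. They were taken by symbol from the 32285 genes of a droplet single-cell RNA data set, and they were chosen by measured values, namely that their counts sat in muscle cells and rose with the count of Myog, so that these properties are described here and not tested. The count used throughout is the unique molecular identifier (UMI), which marks 1 captured RNA molecule. Muscle cells were those with at least 2 UMIs of Pax7, Myf5, Myod1 and Myog summed, and they were divided by their Myog UMIs into the bins 0, 1-4, 5-14 and 15 or more.

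The cells came from trunks and limbs of E14 embryos and had been sorted on tdT, a red fluorescent reporter. All embryos carried a Cre recombinase under the Myf5 promoter, a Rosa26-LSL-tdtomato reporter that Cre switches on, and at least 1 floxed allele of Srsf2, a splicing factor gene that Cre removes. The reporter marks every cell with a history of Myf5-Cre, so the sort is not a sort for muscle. There was 1 library of each genotype, the number of pooled embryos was not given, and no difference between the libraries has a replicate check. Library A is titled SRSF2f/f/Myf5-Cre/tdT, the homozygous floxed genotype, whereas the study's quality-control headings give it as Het/tdT, and library B is titled SRSF2f/w/Myf5-Cre/tdT but headed MKO/tdT. Srsf2 itself stood at 219 CPM (counts of the gene per 1000000 UMIs of the same cells) in the library labelled SRSF2f/f/Myf5-Cre/tdT and at 153 CPM in the library labelled SRSF2f/w/Myf5-Cre/tdT, which goes against the titles. The libraries are therefore called A and B, and no direction between genotypes is drawn.

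After quality filtering 12523 of 15268 barcodes remained in library A and 10345 of 12498 in library B, with medians of 10751 and 9480 UMIs per cell. The rule found 2753 muscle cells in library A (22.0%) and 140 in library B (1.35%). In library A 361 of them lay outside the clusters that carried skeletal muscle markers (SKM-like clusters), and in library B 18 did. The libraries shared 74 barcode sequences, of which 50 were kept in both. No doublet caller was run, and every interval below is a 95% interval that covers counting error only.

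Skeletal muscle forms when Pax7-positive progenitors turn on Myf5 and Myod1, which commit cells to the lineage, and then Myog, which drives their differentiation, exit from the cell cycle and fusion into fibres. Several noncoding RNAs are transcribed together with this program, among them the muscle microRNAs miR-206 and miR-133b, which are cut from hairpins in longer primary transcripts and pair with target mRNAs through a short seed. A lncRNA that holds such hairpins is called a host transcript.

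Gm28653 (ENSMUSG00000099906) is annotated as a lincRNA and as a host of small noncoding RNAs on the plus strand at chr1:20669882-20684298 of GRCm38. It has 2 annotated transcripts. Gm28653-202 has 3 exons and 521 bases, and its last exon contains the whole Mir133b hairpin. The whole Mir206 hairpin lies in the intron before that exon. Gm28653-201 is a single exon of 5276 bases that starts 13 bases inside the Mir206 hairpin, covers the remaining 60 of its 73 bases and contains the Mir133b hairpin too. The 2 hairpins lie 3.69 kb apart. The 4 mature microRNAs of the locus are shown because they are what this gene is annotated to host. They are taken from RefSeq on GRCm38.p6 and written 5′ to 3′, with the seed (bases 2 to 8) in capitals.
mmu-miR-206-3p: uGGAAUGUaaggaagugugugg
mmu-miR-206-5p: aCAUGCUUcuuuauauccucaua
mmu-miR-133b-3p: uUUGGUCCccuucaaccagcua
mmu-miR-133b-5p: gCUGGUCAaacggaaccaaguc

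No 2 of these seeds are the same. The last exon of Gm28653-202, at chr1:20682713-20682958, and the first 150 bases of Gm28653-201, at chr1:20679023-20679172, are shown from the GENCODE M21 transcripts (plus strand) because they place the hairpins in the 2 transcripts. Capitals mark the Mir133b hairpin in the former and the covered part of the Mir206 hairpin in the latter.
Gm28653-202 exon 3: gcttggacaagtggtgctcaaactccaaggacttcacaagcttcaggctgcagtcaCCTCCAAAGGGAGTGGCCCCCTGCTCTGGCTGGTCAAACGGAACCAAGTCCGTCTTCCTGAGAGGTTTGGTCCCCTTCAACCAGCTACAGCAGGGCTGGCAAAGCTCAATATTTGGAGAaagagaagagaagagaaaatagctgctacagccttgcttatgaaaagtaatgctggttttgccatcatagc
Gm28653-201 start: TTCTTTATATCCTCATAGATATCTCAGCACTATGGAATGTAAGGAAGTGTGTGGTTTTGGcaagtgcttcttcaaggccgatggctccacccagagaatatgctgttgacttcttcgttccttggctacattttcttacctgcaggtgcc

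Gm15640 (ENSMUSG00000085781) is annotated as an antisense RNA on the plus strand at chr16:45936323-45939279. It lies inside Phldb2, a gene of the opposite strand that encodes a membrane-associated adaptor protein. Its single annotated transcript has exons of 106 and 421 bases, and neither overlaps an annotated exon of Phldb2. The first exon, at chr16:45936323-45936428, and the last 150 bases of the transcript, at chr16:45939130-45939279, are shown because the counted RNA tags come from the 3′ end.
Gm15640-201 exon 1: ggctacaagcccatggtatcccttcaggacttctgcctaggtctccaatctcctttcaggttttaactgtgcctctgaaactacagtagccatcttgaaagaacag
Gm15640-201 end: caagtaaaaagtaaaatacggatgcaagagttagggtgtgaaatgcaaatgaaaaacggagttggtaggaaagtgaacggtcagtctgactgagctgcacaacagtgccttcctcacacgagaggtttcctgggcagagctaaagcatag

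The common polyadenylation signal AATAAA was searched on the transcript strand in the last 50 bases. It was not in that window of Gm15640-201, Gm28653-201 or Gm28653-202, and it was there in 26.6% of all 141672 annotated transcripts and in 23.5% of the 30233 lncRNA transcripts. The counts do not tell the transcripts of Gm28653 apart. The hairpins have no counts of their own here, so the values below are of the host gene and not of the microRNAs.

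**Figure D1:**
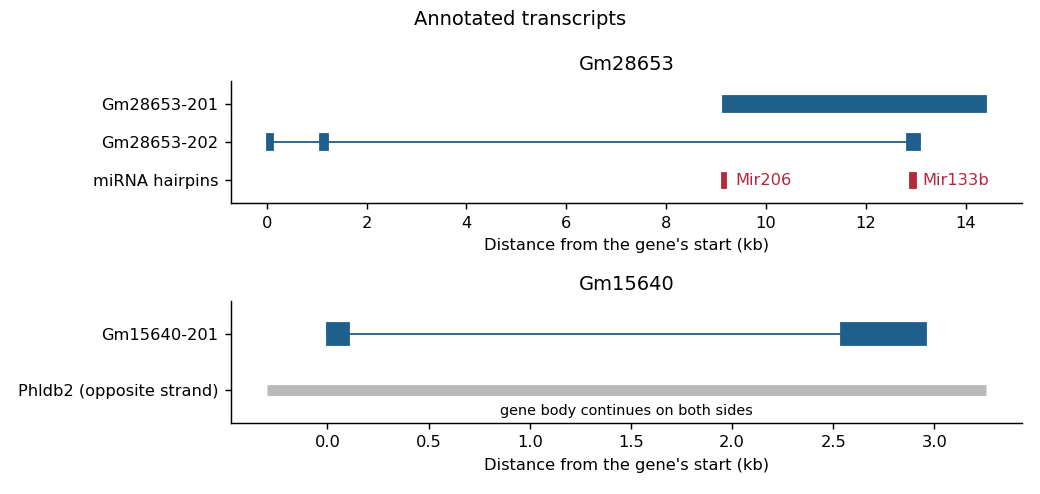
Annotated transcripts of Gm28653 (top) and Gm15640 (bottom) along the distance from each gene's start in kb. Blocks are exons, lines are introns, red blocks are the Mir206 and Mir133b hairpins, and the grey bar is the body of Phldb2 on the opposite strand. Both hairpins overlap Gm28653-201. The Mir133b hairpin lies in the last exon of Gm28653-202 and the Mir206 hairpin in the intron before that exon.

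Gm28653 had 1802 UMIs in the kept cells of library A, of which 1726 (95.8%, interval 94.7 to 96.7) were in muscle cells. In library B it had 97, of which 85 (87.6%, 79.4 to 93.4) were in muscle cells. Gm15640 was the rarer of the 2 RNAs. In library A 191 of its 221 UMIs (86.4%, 81.2 to 90.7) were in muscle cells, and in library B 8 of 9 (88.9%, 51.8 to 99.7) were. For comparison, muscle cells held 29.2% of all UMIs in library A and 2.0% in library B. Myog, which is part of the rule, had 95.2% and 92.0% of its UMIs in them, and Phldb2 had 44.6% and 3.81%.

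Of 17243 genes with at least 50 UMIs, 85 (0.493%) had 80% or more of their UMIs in muscle cells, as did 17 (0.884%) of 1922 lncRNAs. Over both libraries together Gm28653 had the highest share of these lncRNAs (95.4%) and Gm15640 was 12th (86.5%), but the libraries differ in their share of muscle cells, and within them Gm28653 ranked 5th in library A and 4th in library B. Gm15640 ranked 21st and 3rd. Of the 17, Gm17135 (70 of 71 UMIs), Gm36543 (50 of 51) and BC002189 (83 of 86) had higher shares than Gm28653 in library A. Gm19866 (15 of 16 UMIs) and 4930512H18Rik (10 of 11) did in library B. None of these had over 125 UMIs in all, against 1899 for Gm28653. The lncRNA with the highest share in library A was not among the 17 and is left out here. At the edge of the 80% limit, Gm9947 (81.2%) and Gm11681 (80%) lay just inside and Gm31517 (79.8%) and Gm45159 (78.1%) just outside.

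**Figure D2:**
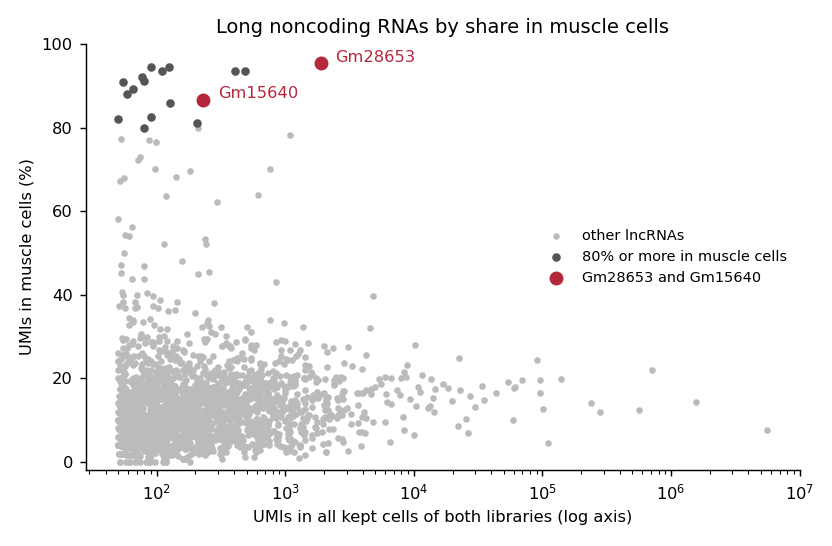
The 1922 lncRNAs with at least 50 UMIs, by UMIs in all kept cells (x, log axis) and share of UMIs in muscle cells in % (y). Gm28653 (95.4%, 1899 UMIs) and Gm15640 (86.5%, 230 UMIs) are red, the other lncRNAs at 80% or more are dark grey.

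Gm28653 was higher in each successive Myog bin of library A, which is how it was chosen. Its level was 6.84 CPM (5.69 to 8.16) in the 1121 muscle cells without a Myog UMI, 20.0 CPM (17.4 to 22.9) in the 641 cells with 1-4, 68.4 CPM (61.8 to 75.7) in the 371 cells with 5-14 and 99.5 CPM (93.4 to 106) in the 620 cells with 15 or more. From each bin to the next the log2 ratios were 1.55 (1.22 to 1.88), 1.78 (1.53 to 2.03) and 0.54 (0.37 to 0.71). From end to end the ratio was 14.5-fold, or 3.86 on the log2 scale (3.59 to 4.14). Of the 12274 genes with at least 50 UMIs in muscle cells of library A, 7.73% were at least 2-fold higher at 15 or more Myog UMIs than at 0 and 14% at least 2-fold lower.

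The same order was seen in the few muscle cells of library B. Values of both libraries were used in choosing the RNA, so library B is no separate check. Gm28653 stood at 3.19 CPM (0.66 to 9.34) from 3 UMIs in 56 cells without Myog, at 16.9 CPM (6.81 to 34.9) in 24 cells with 1-4, at 52.7 CPM (30.1 to 85.6) in 18 cells with 5-14 and at 74.0 CPM (56.4 to 95.5) in 42 cells with 15 or more. The ratio from end to end was 4.54 on the log2 scale (2.92 to 6.85). Between the upper pair of bins the log2 ratio was 0.49 (−0.33 to 1.39). In this library 6.97% of 5124 genes were at least 2-fold higher at the top of the Myog range and 9.74% at least 2-fold lower.

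The share of cells with a UMI went the same way, which at these counts per cell does not tell more cells with the RNA from more RNA per cell. In library A Gm28653 was detected in 8.92% of the muscle cells without Myog, in 20.7% and 54.7% of those in the middle bins and in 66.0% (62.1 to 69.7) of those with 15 or more Myog UMIs. A single cell of the top bin held up to 24 UMIs of Gm28653, and 250 of its 620 cells held at least 2. Median depth differed little between these bins, from 13416 to 15106 UMIs per cell. When each cell was thinned to 5000 UMIs with the bins kept, the levels in library A were 6.80, 19.8, 83.5 and 103.2 CPM, with 4, 34, 7 and 0 shallower cells left out.

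At full depth Gm15640 rose along the same bins, at a far lower level. In library A it stood at 1.93 CPM (1.35 to 2.69) without Myog, 2.90 CPM (1.95 to 4.13) with 1-4 UMIs, 6.27 CPM (4.37 to 8.72) with 5-14 and 8.94 CPM (7.19 to 10.97) with 15 or more. From end to end this was 4.63-fold, or 2.21 on the log2 scale (1.63 to 2.82). Without muscle cells that held 2 or more UMIs of another type's markers it was 3.39 (2.05 to 5.09, from 39 against 5 UMIs), and after thinning to 5000 UMIs with cells and bins called again it was 1.78, from 1 against 6 UMIs, with an interval that includes 0 (−3.75 to 4.82). From each bin to the next the log2 ratios were 0.58 (−0.17 to 1.33), 1.11 (0.37 to 1.87) and 0.51 (−0.07 to 1.12). With each cell thinned to 5000 UMIs and the bins kept, the levels were 2.15, 2.31, 9.34 and 7.74 CPM. These came from 12, 7, 17 and 24 UMIs. The top bin then stood below that of 5-14, with overlapping intervals, so the order of the bins did not hold throughout. It was detected in 3.12%, 4.21%, 8.89% and 13.7% of the cells and never with over 3 UMIs in a cell.

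In library B Gm15640 had 0, 1, 1 and 6 UMIs in the 4 bins. The 0 of 56 cells without Myog has intervals that reach 6.38% of cells and 3.93 CPM. The floor of 3 UMIs over those cells is 3.19 CPM. The level at 15 or more Myog UMIs was 7.53 CPM, and its interval (2.76 to 16.4) reaches below that floor. The log2 ratio to the floor was 1.24, and 0.65 and 0.18 under other choices of muscle cells, so that no difference between the bins is read from library B.

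Phldb2, the gene around Gm15640, did not share this course. In library A it stood at 112, 107, 107 and 97.8 CPM from the lowest to the highest bin, which is a log2 ratio of −0.20 (−0.31 to −0.09) from end to end. In library B it lay between 70.2 and 82.4 CPM with no step outside counting error. The libraries list antisense reads, which were not counted for a gene, at 2.6% and 2.1% of reads, so counting was by strand.

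**Figure D3:**
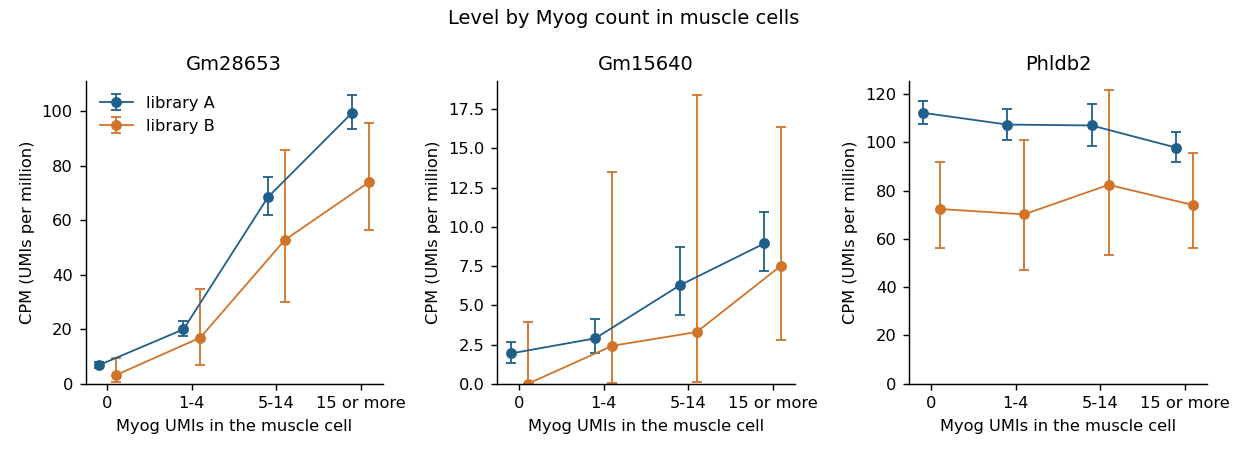
CPM of Gm28653, Gm15640 and Phldb2 (y, each panel with its own scale from 0) in muscle cells by Myog UMIs (x) in library A (blue) and library B (orange). Points are sums over the cells of a bin and bars 95% counting intervals. Gm28653 goes from 6.84 to 99.5 CPM in library A and Phldb2 from 112 to 97.8 CPM.

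Over all muscle cells Gm28653 stood at 39.0 CPM in library A and 34.7 CPM in library B, and the log2 ratio of B over A was −0.17 (−0.50 to 0.14). Within the top bin it was 99.5 against 74.0 CPM, a log2 ratio of −0.43 (−0.83 to −0.05). In the lower bins it was −1.10, −0.24 and −0.38, with intervals that include 0. Gm15640 stood at 4.32 and 3.26 CPM, with a ratio of −0.40 (−1.64 to 0.60). These ratios compare 2 libraries, and with 1 library each they cannot be told apart from differences between preparations.

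Within the cells of the top Myog bin, the level of Gm28653 was higher in those with the most UMIs of Myh3, a marker of later differentiation. In library A it was 83.4 CPM in the 270 cells without Myh3, the embryonic myosin heavy chain, 88.6 CPM in the 261 cells with 1-9 Myh3 UMIs and 171 CPM (151 to 192) in the 89 cells with 10 or more. Median depth was 14604.5 UMIs in the first of these classes and 16885 in the last. Myog ran up to 87 UMIs in this bin and was not held constant, and its part in this difference was not tested. Gm28653 was 97.1 CPM (90.9 to 104) in cells without and 124 CPM (102 to 150) in cells with Ckm, the muscle creatine kinase. These intervals overlap, which alone does not tell whether the levels differ, and their ratio was not computed. Cells that still had a Pax7 UMI did not differ beyond counting error from those without (91.3 and 101 CPM).

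At the other end, among muscle cells without Myog, Gm28653 went with Myod1, the determination factor. It stood at 3.83 CPM in 325 cells without Myod1, at 6.31 CPM in 616 cells with 1-4 UMIs and at 12.5 CPM in 180 cells with 5 or more. Their detection was 4.92%, 8.44% and 17.8%, and median depth rose alongside from 13054 to 17261 UMIs. Cycling cells, with at least 2 UMIs of Mki67 and Top2a summed, had 7.44 CPM (6.09 to 8.99) in this bin, against 4.66 CPM (2.76 to 7.36) in the others. In the bin of 1-4 these were 19.5 and 21.8 CPM. In the bin of 5-14 they were 62.8 CPM (54.9 to 71.5) and 79.1 CPM (67.1 to 92.7). Cycling cells were thus higher in the bin without Myog and lower in those of 1-4 and 5-14. The intervals overlap in each of these bins, which alone does not tell whether the levels differ. No ratio between the classes was computed, so nothing is read by cycling. Myod1 and Pax7 are part of the rule that chose these cells.

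Gm15640 showed no split of this kind that exceeded its counting error. By Myh3 in the top bin it was 7.91, 9.46 and 10.4 CPM from the lowest to the highest class, and by Myod1 in the lowest bin 2.56, 1.60 and 2.04 CPM. All these intervals overlap, and the counts behind them run from 7 to 39 UMIs.

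**Figure D4:**
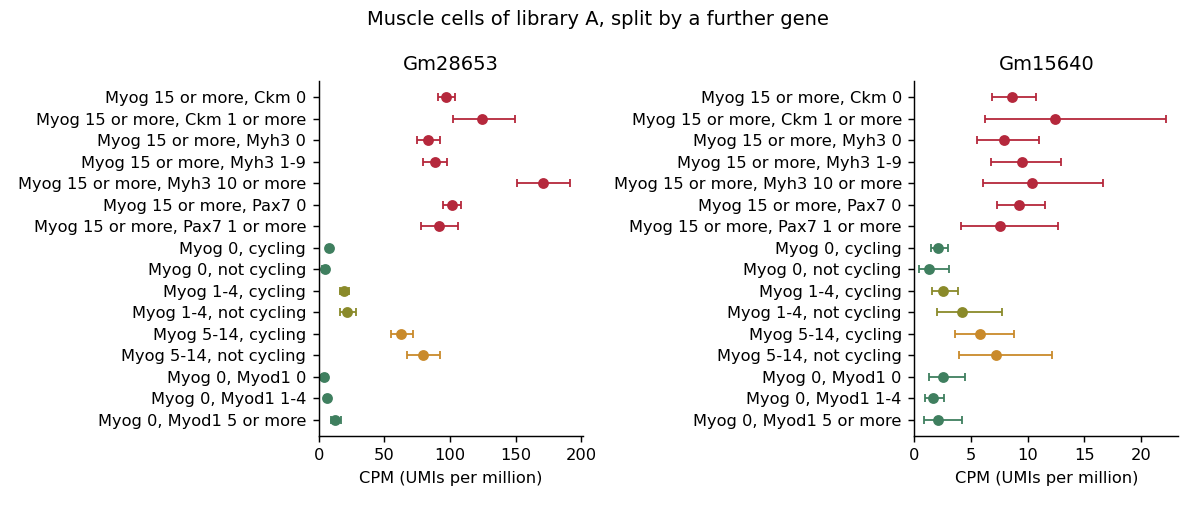
CPM (x, from 0, a different scale in each panel) of Gm28653 and Gm15640 in muscle cells of library A, by Myog bin and a further gene or cell cycle class (y). Points are sums over cells, bars 95% counting intervals and colours the Myog bin. The cells with 10 or more Myh3 UMIs stand at 171 CPM of Gm28653, against 83.4 CPM in those with none.

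Within a bin, detection of Gm15640 did not differ beyond counting error between cells with and without Gm28653. In the top bin of library A, Gm15640 was detected in 13.9% (10.7 to 17.7) of the cells with Gm28653 and in 13.3% of the cells without it. In the bin without Myog these shares were 5.00% and 2.94%, in that of 1-4 they were 3.76% and 4.33%, and in that of 5-14 they were 9.36% and 8.33%. With 57, 5, 5 and 19 cells that held both, only a large difference could have been seen.

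Clusters were made without either gene. In both libraries Gm28653 was highest in the SKM-like cluster with the highest Myog. Myog and other muscle genes were not barred from the clustering, so the clusters are no separate check on the Myog bins. Of the 4 SKM-like clusters, the one led by Tnnt2, Ttn, Mymx and Myog (751 cells) had the highest Gm28653, with 106 CPM in library A and 85.5 CPM in library B. The clusters led by Pax7 and Myod1 (1108 cells) and by Msc and Pax7 (849 cells) had 21.7 and 18.6 CPM in library A and 11.3 and 23.1 CPM in library B. Gm15640 in library A was 10.3 CPM in the first of these and 2.77 and 2.63 CPM in the latter pair.

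Myog in these clusters was 1447, 176 and 105 CPM in library A and 1676, 275 and 71.1 CPM in library B. In library B Gm28653 did not follow Myog between the latter pair, where it rested on 11 and 12 UMIs with overlapping intervals. A small cluster was led by Acta1, the skeletal actin, and Tnnc2. Its 50 cells in library A had 1706 CPM of Acta1 against 204 CPM in the cluster led by Tnnt2, with 190 CPM of Myog and 30.6 CPM of Gm28653 (10 UMIs, 14.7 to 56.2). They had no UMI of Gm15640, with an interval up to 11.3 CPM. Its 14 cells in library B had 4904 CPM of Acta1 and no UMI of either RNA, with an interval up to 33.6 CPM for each. These cells were shallow, with medians of 3560 and 1981 UMIs, and the part of depth in these values was not tested.

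Outside the muscle rule Gm28653 was detected in 0.665% of 9770 cells in library A (0.514 to 0.847) and in 0.118% of 10205 cells in library B. Gm15640 was detected in 0.307% and 0.0098% of them. The median depth there was 9529 and 9406 UMIs, against 14702 and 15526 in muscle cells. Myog was detected in more of these cells, at 10.4% of them in library A and 1.27% in library B. In library A a Myog UMI was found in 4.67% to 16.03% of the cells of each class. Myog was also the more abundant RNA, with 19972 UMIs in muscle cells of library A against 1726 of Gm28653, and 1499 against 85 in library B. The rule itself limits how many Myog UMIs a cell outside it can hold, and it sets no such limit for Gm28653. The higher detection of Myog therefore cannot show whether the restriction to muscle cells differs between these RNAs, which was not tested.

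The 222 cells of SKM-like clusters that the rule had missed in library A had the highest share outside the rule, 5.41% (2.82 to 9.25) for Gm28653 and 1.80% for Gm15640. In Mesen-like cells, with mesenchymal markers, Gm28653 was detected in 0.531% of 3579 cells in library A and in 0.0416% of 2405 in library B. Chon-like (cartilage) cells had 0.597% and 0.121%, and Neu-like (neural) cells 0.951% and 0.163%. Immu-like (immune), Epi-like (epithelial) and Ery-like (red blood cell) cells outside the rule had no UMI of Gm28653 in either library. For Immu-like cells this was 0 of 131 in library A and 0 of 675 in library B, where the floor of 3 cells is 2.29% and 0.444%. Cells of these classes that met the muscle rule did hold Gm28653. In library A it had 1 UMI in 7 Immu-like, 3 in 5 Epi-like and 3 in 7 Ery-like cells. The same cells held 42, 53 and 33 Myog UMIs. In library B it had 3 UMIs in 2 Immu-like cells and 0 in 2 Epi-like cells, which held 29 and 4 Myog UMIs. Whether these barcodes of both libraries also held muscle cells was not tested. Apart from SKM-like clusters, the intervals of the named classes for Gm28653 overlapped within each library. In muscle cells without Myog of library A the shares were 8.92% for Gm28653 and 3.12% for Gm15640.

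**Figure D5:**
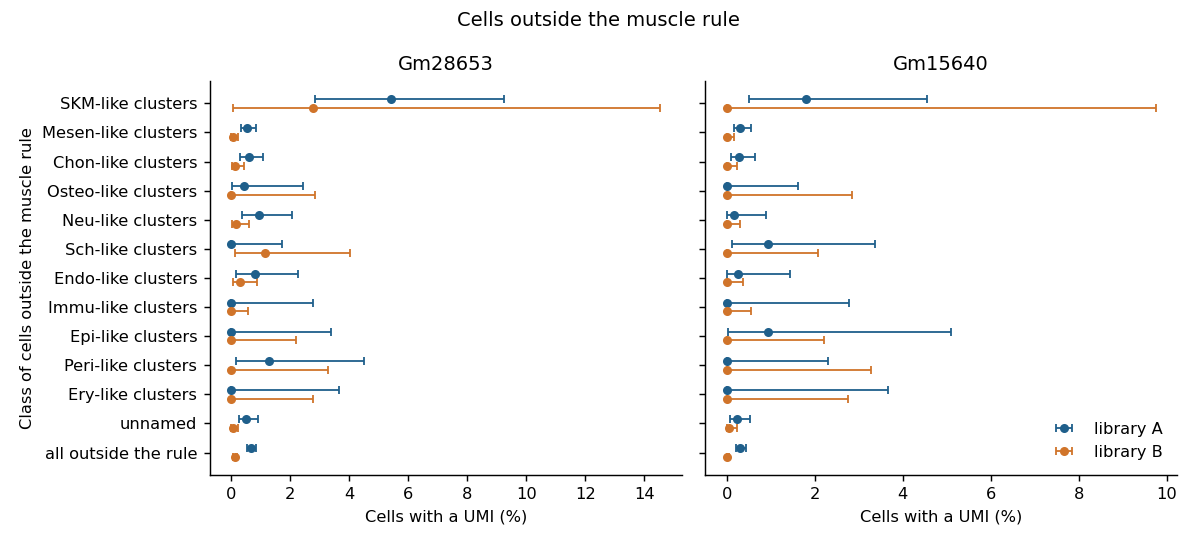
Share of cells outside the muscle rule with a UMI of Gm28653 (left) or Gm15640 (right) in % (x), by class of cluster (y), in library A (blue) and library B (orange), with 95% binomial intervals. In library A SKM-like cells stand at 5.41% for Gm28653 and all cells outside the rule at 0.665%.

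The ratio of each RNA to other muscle RNAs was set side by side inside and outside muscle cells, since free RNA of 1 source keeps its genes in 1 ratio. Per 100 UMIs of Mylpf, a fast myosin light chain, Gm28653 had 16.2 UMIs (15.4 to 17.1) in muscle cells of library A and 4.75 (3.60 to 6.17) in cells outside the rule and the SKM-like clusters. Per 100 UMIs of Acta1 it had 74.0 and 15.9. In library A Gm15640 had 1.79 and 2.10 per 100 UMIs of Mylpf, and 8.19 and 7.03 per 100 of Acta1, with overlapping intervals. Ratios to Myog are not comparable in this way, because cells with 2 or more Myog UMIs count as muscle by the rule. What part free RNA has in the UMIs outside muscle cells was not tested.

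Barcodes removed by the quality filter also held Gm28653, with 137 UMIs in library A and 23 in library B. Of these, 69 and 16 were in the 106 and 10 removed barcodes that met the muscle rule. Gm15640 had 2 and 1 UMIs in removed barcodes. Within the muscle rule, the 361 cells of library A outside SKM-like clusters had 9.29 CPM of Gm28653 against 45.1 CPM in those inside, and for Gm15640 these were 1.73 and 4.85 CPM. In library B the 18 such cells had 14.4 against 39.6 CPM of Gm28653 (7 UMIs outside) and 4.12 against 3.05 CPM of Gm15640 (2 UMIs outside).

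The neighbourhood of Gm28653 was otherwise nearly silent. Within 100 kb on either side, the genes with at least 20 UMIs were Pkhd1 with 21 UMIs, Il17a with 52 and Il17f with 143 over both libraries, against 1899 for Gm28653. Of these UMIs 66.7%, 5.77% and 30.1% were in muscle cells. Around Gm15640 such genes were Phldb2 with 15365 UMIs, Plcxd2 with 575 (18.8% in muscle cells), Cd96 with 57 (none in muscle cells) and the antisense gene Gm15638 with 28. None of the neighbours other than Phldb2 had a log2 ratio between the outer Myog bins of library A whose interval excluded 0.

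Genes whose pattern was most like each RNA were ranked by Pearson's r of log2(CPM + 1) over 57 groups of cells, each a cluster in 1 library, among 15806 genes. For Gm28653 these were Chrnd (0.93), Neb (0.92), Musk (0.92), Ttn (0.92) and Chrna1 (0.91). Chrnd and Chrna1 encode subunits of the muscle acetylcholine receptor, Musk the receptor kinase of the neuromuscular junction, and Neb and Ttn giant proteins of the sarcomere. Without the SKM-like clusters (50 groups) their r lay between 0.52 and 0.77. For Gm15640 the closest were Cpa5 (0.86), Musk (0.83), AI463229 (0.82), Ect2l (0.82) and 2310043L19Rik (0.81), with r between −0.01 and 0.58 without those clusters. Gm28653 and Gm15640 had an r of 0.78 with each other. The groups share 2 libraries and differ in depth, so these values are descriptions.

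The 2 RNAs were set beside lists of genes of the myogenic program. In library A, counted as at least 2-fold between 15 or more Myog UMIs and 0, 14 of 14 contractile and energy genes with enough UMIs were higher, 4 of 5 fusion genes and 3 of 3 genes of cell cycle exit, against 7.73% of all genes counted. The medians of these lists were 4.99, 2.25 and 3.31 on the log2 scale, against −0.17 over all genes counted. Myh3 had a log2 ratio of 8.09, Mymx and Mymk, the fusion proteins of myoblasts, had 7.59 and 7.46, Acta1 6.01, Rb1 4.06 and Cdkn1a 3.31. Gm28653 (3.86) lay between Rb1 and Cdkn1a, and Gm15640 (2.21) close to Jam3 (2.25), an adhesion molecule.

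The 14 regulators that could be counted were split, with 4 higher and 6 lower in library A, against 7.73% and 14% of all genes counted, and a median of −0.18. Myog itself is higher by construction of the bins, and Mef2c, its partner in activating muscle genes, had 3.31. Pax7 (−3.51), Myf5 (−4.27) and Msc (−3.45), a repressor of myogenic factors, were lower, and Myod1 (0.33) was within 2-fold. Of 5 cell cycle genes 2 were lower, among them Mki67 (−1.07). In library B the counts were 13 of 13 contractile, 4 of 4 fusion and 3 of 3 cell cycle exit genes higher, 4 regulators higher and 4 lower of 13, and 2 of 5 cell cycle genes lower, against 6.97% of all genes higher and 9.74% lower. The list medians, in this order, were 6.33, 3.94, 2.42, 0.11 and −0.84 against −0.15 over all genes counted.

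Of 8 long noncoding RNAs in a list of well-known ones, 7 were within 2-fold between the outer Myog bins of library A and 1 was higher. Of these, H19 (−0.28), Meg3 (0.64), Rian (0.53), Mirg (0.79), Neat1 (−0.30), Malat1 (0.32) and Snhg11 (0.81) were within 2-fold and Kcnq1ot1 (1.36) was higher. In library B 2 of 7 were higher, Kcnq1ot1 (2.09) and Neat1 (4.58, from 223 against 11 UMIs). Among all genes counted 7.73% were higher in library A and 6.97% in library B. The list is too short to read a difference from these shares. Between 7.90% and 32.0% of the UMIs of these 8 in library A were in muscle cells.

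Of the 17 lncRNAs with 80% or more of their UMIs in muscle cells, 12 were at least 2-fold higher at the top of the Myog range in library A, 2 were lower and 3 were within 2-fold. Among all genes counted in that library 7.73% were higher and 14% lower, so 2 of 17 lower is close to the common share. The 17 were chosen by their share in cells that the rule called muscle partly by Myog. This choice can favour RNAs that are high with Myog, so the 12 of 17 is a description and was not tested. The log2 ratios of 2310043L19Rik (7.36), 5730419F03Rik (7.24) and 4930512H18Rik (7.13) rested on 4, 1 and 1 UMIs in cells without Myog. BC002189 and Gm34095 had 65 and 59 UMIs at the top and 0 in cells without Myog, so that their ratios of 5.27 and 5.13 are to a floor of 3 UMIs. Gm9947 (−1.40) and Gm11681 (−1.41) were the lower pair, with 80 and 33 UMIs in cells without Myog against 17 and 7 at the top. Gm28653 was the most abundant of the 17, with 39.0 CPM in muscle cells of library A, and Gm15640 had 4.32 CPM. The next after Gm28653 were 2310043L19Rik with 9.65 CPM and AI463229 with 8.25 CPM.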

How the data were processed

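The cells had been sequenced with 10x Genomics 3′ chemistry, 1 library per genotype. The authors aligned reads to mm10 without counting introns and obtained cells and UMI counts with Cell Ranger 5.0.0 by the file header (the submitters' processing notes name Cell Ranger 3.1.0, STAR and Seurat 3.1.1), and aggregated the libraries after down-sampling reads. The deposited values are counts, whole UMIs of 32285 genes in 27766 barcodes, 156093779 in library A and 128116615 in library B. The authors' summary files served only to pair barcode suffixes with libraries, by the number of cells, and for the shares of antisense reads.

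Barcodes over 2 SD from their library's mean of log10 UMIs or log10 genes, or with over 10% mitochondrial UMIs, were removed, which left 22868 cells. Leiden clustering on 2000 variable genes without the 2 members (30 components, 20 neighbours, resolution 0.8, seed 0) gave 30 clusters, of which 25 were named from marker lists. Cycling cells had at least 2 UMIs of Mki67 and Top2a summed. UMIs were summed per library and group of cells. CPM have exact Poisson intervals, shares exact Clopper-Pearson intervals and ratios exact intervals from the binomial split, all at 95%, and a group at 0 was given a floor of 3 counts. The intervals were tried on simulated Poisson counts with known ratios. These follow the model the intervals assume and hold no further spread between cells, so they do not show how well the intervals cover these data. No test between conditions was made, because cells of 1 library are not replicates.

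Genes named were the members, the genes of the muscle rule, Srsf2, neighbours within 100 kb with at least 20 UMIs, the 5 genes most like each member (genes with at least 100 UMIs, groups of at least 30 cells), 6 gene lists, and lncRNAs with at least 50 UMIs of which 80% or more lay in muscle cells. Mylpf and Acta1 also served as references. Members and lists were chosen with earlier results of these data known. The classes by Myh3, Ckm, Pax7, Myod1 and cycling were set after the data had been seen. Annotation was GENCODE M21, which held 32158 of the gene identifiers (99.6%), with microRNA sequences from RefSeq. Python 3.11.15 with scipy 1.17.1, leidenalg 0.10.2, numpy 2.4.6, matplotlib 3.10.9, scikit-learn 1.9.0, python-igraph 0.11.9 and pandas 2.3.3 were used. Alternatives were the quality filter, the mitochondrial limit, the definition of muscle cells, cells with markers of other types, thinning, the lowest bin, the denominator and standardization to the Myog bins.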

Additional observations from a re-analysis of the deposited data

How the results depend on the processing

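The log2 ratios of both RNAs between the outer Myog bins stayed above 0 under each alternative. That of Gm15640 in library A was 1.78 with an interval that includes 0 (−3.75 to 4.82) after thinning to 5000 UMIs with cells and bins called again. In library B that of Gm15640 was to a floor of 3 UMIs. Against the bin of 1-4 it was from 6 against 1 UMIs, with an interval that includes 0, so nothing is read from its sign. The ratios of library B over library A over all muscle cells stayed below 0, and each interval computed for them includes 0. Within the top Myog bin alone that of Gm28653 excluded 0 (−0.83 to −0.05). Without the quality filter, the share of Gm28653 UMIs in muscle cells of library A was 92.6% and 0.870% of other cells held one. With a mitochondrial limit of 5%, Gm15640 in library B had 100% of its UMIs in muscle cells and 0% of other cells held one. With at least 5 UMIs of the 4 muscle genes, these values in library A were 89.8% and 1.30% for Gm28653 and 76.5% and 0.492% for Gm15640, whose ratio to the floor in library B was 0.65. With SKM-like clusters as muscle cells, they were 92.8% and 0.908% for Gm28653. Leaving out muscle cells with 2 or more UMIs of another type's markers kept 34.4% of them in library A and 40.7% in library B, and since only muscle cells were removed the shares fell to 89.8% and 72.1% for Gm28653 and to 69.1% for Gm15640 in library A, whose ratio was 3.39 (to the floor in library B 0.18). After thinning to 5000 UMIs, with muscle cells and bins called again, the ratio of Gm28653 in library A was 3.13. Against the bin of 1-4 it was 2.32 in library A and 2.13 in library B, and that of Gm15640 in library A was 1.63. After thinning to 2000 UMIs, shares of cells outside the rule were 0.163% and 0.0317% for Gm28653 and 0.0872% for Gm15640 in library A, since fewer UMIs per cell are looked at. Leaving SKM-like clusters out of the other cells, a choice made after seeing the data, gave 96.7% for Gm28653 in library A. The remaining values, 63 under the other settings and 7 under this last one, lay within the counting interval of the main value or, for the ratio to the floor, within 1.5-fold of it. No paired analysis was possible because there was 1 library per genotype. Depth limits Gm15640 in library B most, where it had 9 UMIs in all.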
